A study of Homo sapiens with 9 samples.

Results

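The mitochondrial ribosomal protein genes are the nuclear genes MRPL and MRPS, which encode the proteins of the large and the small subunit of the ribosome inside mitochondria. They were taken as every gene whose symbol is MRPL or MRPS followed by a number and, in some, by A, B or C, which gave 77 of the 27856 genes in the tables: 49 MRPL and 28 MRPS genes. All 77 reached the level set for testing, 1 FPKM on average across all 9 libraries, as did 12507 genes in all. FPKM are fragment counts scaled by transcript length and by the library's total of mapped fragments, and those of all RefSeq transcripts of a gene were summed.

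The libraries were made from DU145, an established human prostate cancer cell line, and fall into 3 groups of 3. Control cells carried a scrambled shRNA, and the knockdown cells carried shRNA FZD6 #1 (shRNA1) or shRNA FZD6 #2 (shRNA2), 2 hairpins against the Wnt receptor gene FZD6. The labels give all 9 as genotype WT, name neither a time point nor a treatment, and call the samples of a group triplicates without saying whether they were separate cultures, so p-values here measure the spread between these samples. The series asks what changes in DU145 transcripts when FZD6 is lowered.

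Mitochondria keep a ribosome of their own, which translates the few messages of mitochondrial DNA into core subunits of the respiratory chain and ATP synthase. Its rRNAs are transcribed inside the organelle, but its proteins are translated in the cytosol and imported, so that many scattered nuclear genes have to supply a single particle. Many of these proteins descend from those of bacterial ribosomes and the rest were gained in the mitochondrial lineage. The words that stand for the binding preferences of ETS-family factors such as GABP, of NRF1 and of YY1, which are known regulators of nuclear genes for mitochondrial proteins, are therefore a natural first thing to look at in their promoters.

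Promoter sequences were available for 69 of the 77 genes, as windows of 300 bases from RefSeq in build GRCh38.p14, with 250 bases before the annotated start and 50 from it on. The ETS word CCGGAAG, on either strand, stood in 29 of the 69 (42.0%), compared with 20.6% of 9647 tested genes and 10.7% of all 27305 promoters. The YY1 word AAGATGGCG stood in 13 (18.8%), compared with 4.28% of tested genes and 1.85% of all promoters. The NRF1 word GCATGCGC stood in 6 (8.70%), compared with 5.98% and 3.27%. At least 1 of the 3 words was found in 39 of the 69 (56.5%) and in 28.1% of tested genes. The GC box GGGCGG stood in 60.9% of the members' windows and 72.2% of those of tested genes, and the TATA word TATAAA in 2.90% and 5.27%. A match is a run of letters and says nothing about whether a factor bound there.

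The stretches below run from 100 bases before the start to base 30 from it, 5′ to 3′, with ETS, NRF1 and YY1 words in capitals on whichever strand they read. The first 6 belong to genes among the 8 members with the largest rises in knockdown and show the kinds of words found. The last 2 belong to the members that differed most between the hairpins, and neither stretch holds any of the words. 
MRPL32, chr7:42932276-42932405, plus strand: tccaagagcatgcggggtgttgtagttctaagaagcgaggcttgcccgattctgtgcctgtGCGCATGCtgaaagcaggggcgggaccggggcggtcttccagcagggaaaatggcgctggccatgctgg
MRPL54, chr19:3762582-3762711, plus strand: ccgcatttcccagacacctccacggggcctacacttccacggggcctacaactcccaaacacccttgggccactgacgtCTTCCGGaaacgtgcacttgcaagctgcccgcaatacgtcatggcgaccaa
MRPS30, chr5:44808847-44808976, plus strand: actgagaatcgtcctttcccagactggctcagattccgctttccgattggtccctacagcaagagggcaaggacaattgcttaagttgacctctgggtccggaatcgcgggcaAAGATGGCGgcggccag
MRPS18A, chr6:43687762-43687891, minus strand: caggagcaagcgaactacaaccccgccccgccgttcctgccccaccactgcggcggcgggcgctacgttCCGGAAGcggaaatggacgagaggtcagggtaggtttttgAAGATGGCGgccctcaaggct
MRPL48, chr11:73787774-73787903, plus strand: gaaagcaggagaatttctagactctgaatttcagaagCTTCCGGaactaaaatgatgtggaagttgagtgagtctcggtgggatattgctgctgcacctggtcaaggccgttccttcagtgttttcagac
MRPS31, chr13:40771161-40771290, minus strand: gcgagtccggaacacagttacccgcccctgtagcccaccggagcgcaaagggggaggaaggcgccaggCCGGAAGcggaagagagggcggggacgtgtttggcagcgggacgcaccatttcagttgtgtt
MRPL19, chr2:75646683-75646812, plus strand: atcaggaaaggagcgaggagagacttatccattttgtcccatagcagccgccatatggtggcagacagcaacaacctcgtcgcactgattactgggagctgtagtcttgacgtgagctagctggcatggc
MRPL49, chr11:65122083-65122212, plus strand: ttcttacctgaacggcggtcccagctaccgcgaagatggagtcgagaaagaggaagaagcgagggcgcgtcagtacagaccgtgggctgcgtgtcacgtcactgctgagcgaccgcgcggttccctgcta

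FZD6 was lower in every knockdown library. Its level was 20.9, 20.5 and 20.04 FPKM in the control libraries, 9.47, 10.2 and 9.80 FPKM with shRNA1 and 7.84, 8.79 and 7.69 FPKM with shRNA2. The mean was 52.1% lower with shRNA1 and 60.5% lower with shRNA2, and the change in log2(FPKM + 1) over the 6 knockdown libraries was -1.12 (exact permutation test over libraries, two-sided p = 0.0238, which is the lowest possible for 6 against 3). Of the cell identity markers, KRT8 (230 FPKM) and KRT18 (272 FPKM) were high in the control libraries, EPCAM and CDH1 were at 17.6 and 4.68 FPKM, and KLK3, KLK2 and TMPRSS2 were at or near 0. Markers of blood, endothelial and stromal cells stayed below 1 FPKM in every library with the exception of CD68, a lysosomal gene that epithelial lines also express, which was at 17.4 FPKM in control and 23.7 FPKM in knockdown libraries.

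In control cells the 77 genes were expressed at well above the typical gene. Their mean control levels ran from 4.98 to 147.9 FPKM with a median of 44.0, and 71 of the 77 lay above the median of all tested genes, 9.82 FPKM. The 3 control libraries varied little, with a median coefficient of variation of 2.95% over the members. The highest levels belonged to MRPL24 with 155, 139 and 150 FPKM, MRPS24 with 140, 136 and 143 FPKM, and MRPL12, the counterpart of the bacterial stalk protein L7/L12, with 140, 130 and 142 FPKM. MRPS15 followed with 127, 128 and 129 FPKM and MRPL53 with 125, 123 and 128 FPKM. The ranges of MRPS24 and MRPL12 overlap with that of MRPL24, and those of MRPS15 and MRPL53 with each other, so the order among these neighbours is not larger than the spread between libraries. MRPS25 (5.21, 4.88 and 4.86 FPKM), MRPL42 (5.02, 5.31 and 5.39 FPKM) and MRPS33 (6.83, 6.80 and 6.58 FPKM) were lowest, and the first pair overlapped. Longer transcripts had lower levels across the 77 genes (Spearman's rho -0.50, a description over genes that share libraries).

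Knockdown of FZD6 went with small rises across almost the whole family. Of the 77 genes, 58 rose in knockdown against control (limma, adjusted p below 0.05), compared with 13.5% of all tested genes, and 0 fell, compared with 7.09%. At an unadjusted p under 0.05, 67 members were higher and 0 lower, beside 2811 and 1618 of the 12507 tested genes. The fitted change was positive for 76 genes and had a median of 0.17 on the log2(FPKM + 1) scale, against 0.03 for all tested genes, and the 58 genes that rose stood at 110% to 125% of their control mean. For 57 genes every knockdown library was above every control library, a separation seen in 16.4% of tested genes. The rises were mostly under 1.2-fold. At an unadjusted p below 0.01 and at least 1.2-fold, 6 members were higher, compared with 138 of the 12507 tested genes (1.1%). Both cutoffs are the study's criteria, applied here to levels summed per gene, so the set of genes need not be that of its own analysis. The number called rested on the control libraries, with 31 without control replicate 1 and 29 without control replicate 2, when 6.02% and 5.07% of all genes were called higher, while the median change stayed at 0.17.

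The rise was present with each hairpin. With shRNA1, 53 members were higher than control (limma, adjusted p below 0.05), compared with 11.6% of tested genes, and all 77 fitted changes were positive. With shRNA2, 50 were higher, compared with 15.3%, and 1 was lower, MRPL19, compared with 11.4%. Fitted changes were positive for 74 genes with shRNA2 and negative for MRPL19, MRPL37 and MRPL49. With the trend of each library on transcript length removed, as described further on, the members called higher were 21 with shRNA1 and 20 with shRNA2, beside 6.09% and 11.3% of tested genes. The hairpins were compared with the same 3 control libraries, so a control library that is low or high moves both counts. The count with shRNA1 was 31 without control replicate 1, 28 without control replicate 2, and 30, 29 and 26 without shRNA1 replicates 1, 2 and 3, and the count with shRNA2 was 29 without control replicate 2. 

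**Figure D1:**
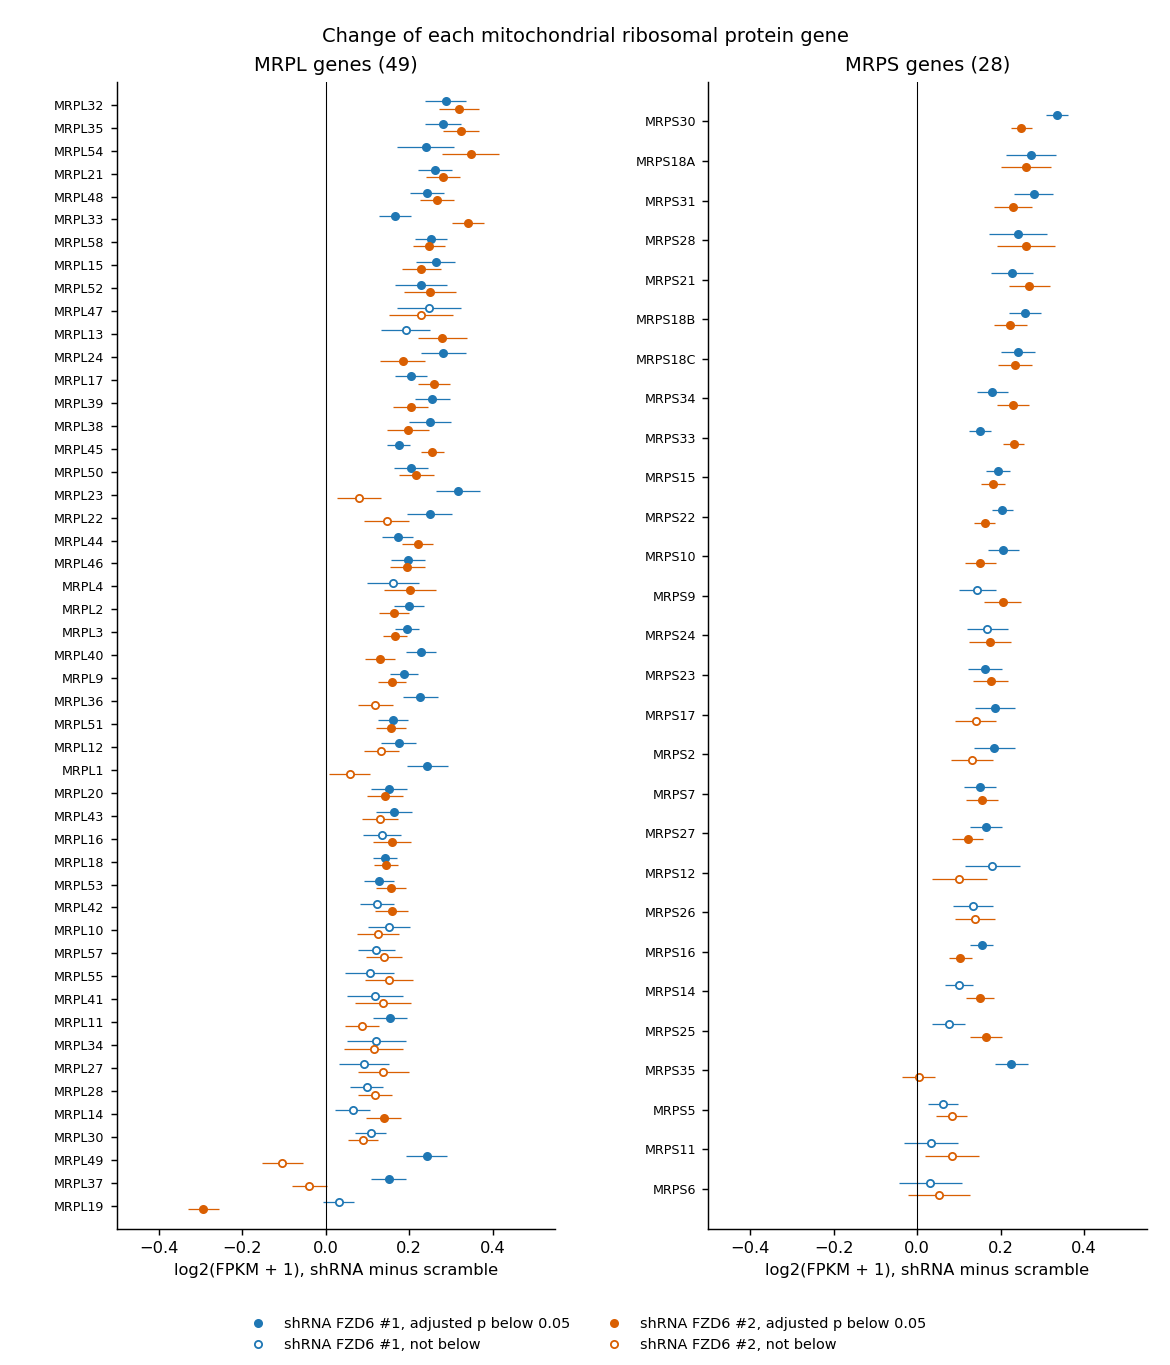
Change in log2(FPKM + 1) against control (scramble) for each of the 49 MRPL genes (left) and 28 MRPS genes (right), with shRNA1 in blue and shRNA2 in orange. Points are limma estimates, bars are standard errors, filled points have an adjusted p below 0.05, and genes are ordered by the pooled knockdown change. Almost all points lie right of 0, and MRPL19, MRPL37 and MRPL49 at the foot of the left panel have orange points left of it.

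The largest rises were found in both subunits' symbols and in old and new proteins of the particle. MRPL32, a counterpart of bacterial L32 that is matured by a mitochondrial protease, measured 50.9, 52.1 and 55.02 FPKM in control, 65.8, 62.9 and 64.9 FPKM with shRNA1 and 61.7, 68.7 and 67.6 FPKM with shRNA2. All 6 knockdown values were above the highest control value, and the log2 change was 0.30 ± 0.04 (SE; limma adjusted p = 0.00315). MRPL35, a counterpart of bacterial L35, measured 15.6, 16.5 and 16.3 FPKM in control, 20.6, 20.3 and 18.7 FPKM with shRNA1 and 20.1, 21.0 and 20.3 FPKM with shRNA2. The groups again did not overlap, and its change was 0.30 ± 0.04 (adjusted p = 0.00265). MRPS30 measured 62.0, 64.5 and 63.9 FPKM in control, 81.8, 79.2 and 80.0 FPKM with shRNA1 and 75.6, 76.1 and 75.1 FPKM with shRNA2. It stood highest with shRNA1, lower with shRNA2 and lowest in control with no overlap between the groups, and its change was 0.29 ± 0.03 (adjusted p = 0.00229). Despite its symbol, MRPS30 sits in the large subunit and is a paralog of MRPL37.

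MRPL54, a protein without a bacterial counterpart, measured 48.5, 45.6 and 52.1 FPKM in control, 60.8, 55.3 and 56.9 FPKM with shRNA1 and 63.5, 57.4 and 65.9 FPKM with shRNA2. Its control libraries were more spread than those of the others named here, and its change of 0.29 ± 0.06 (limma adjusted p = 0.0156) no longer passed without control replicate 1 or 2 (adjusted p = 0.0600 and 0.0737). MRPS18A, one of 3 human relatives of bacterial S18 and placed in the large subunit by structure, measured 59.9, 54.9 and 59.4 FPKM in control, 73.7, 67.2 and 70.3 FPKM with shRNA1 and 71.8, 64.6 and 73.3 FPKM with shRNA2. MRPL21, MRPL48 and MRPS31 completed the 8 largest rises. The changes of MRPS18A, MRPL21, MRPL48 and MRPS31 were 0.27, 0.27, 0.25 and 0.25, all 4 with knockdown libraries above all control libraries. 

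The 5 most abundant members all rose, with changes on both sides of the family's median of 0.17. On the log2 scale MRPL24 was higher by 0.23 ± 0.05 (limma adjusted p = 0.0190), MRPS15 by 0.19 ± 0.03 (adjusted p = 0.00309), MRPS24 by 0.17 ± 0.04 (adjusted p = 0.0230), MRPL12 by 0.15 ± 0.04 (adjusted p = 0.0227) and MRPL53 by 0.14 ± 0.03 (adjusted p = 0.0181). All 5 had knockdown libraries above all control libraries. Of the least abundant, MRPS33 rose by 0.19 ± 0.03 (adjusted p = 0.00701) and MRPL42 by 0.14 ± 0.04 (adjusted p = 0.0264), while MRPS25 did not pass (0.12 ± 0.04, adjusted p = 0.0766) and had a negative value, -0.16, when NM_ accessions alone were summed. The 19 members that did not pass were 13 MRPL and 6 MRPS genes, with changes between -0.13 and 0.20. They included the 5 that were lower with shRNA2 than with shRNA1, and MRPL41, MRPS12 and MRPL28, whose control means of 111, 78.2 and 66.1 FPKM were above the family's median.

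The summed levels of the large and the small subunit rose by similar proportions. Summed over the 49 MRPL genes, FPKM were 2657, 2633 and 2723 in control, 3047, 3023 and 3060 with shRNA1 and 3021, 2893 and 3108 with shRNA2. Summed over the 28 MRPS genes they were 1393, 1371 and 1417 in control, 1597, 1588 and 1605 with shRNA1 and 1570, 1534 and 1630 with shRNA2. Every knockdown library was above every control library in both sums, by 13.3% on average for the large and 13.9% for the small subunit. As a share of all genes' summed FPKM, the members made up 0.544%, 0.544% and 0.540% in control. The share was 0.622%, 0.601% and 0.599% with shRNA1 and 0.565%, 0.604% and 0.585% with shRNA2. It too was higher in every knockdown library, but the size of the rise depends on which of these measures is used. The ratio of the sums was 1.92 ± 0.00811 (SD, n = 3) in control, 1.91 ± 0.00197 with shRNA1 and 1.91 ± 0.0193 with shRNA2, and the knockdown mean was 0.585% below the control mean. That difference is larger than the SD of the control and shRNA1 libraries and smaller than that of the shRNA2 libraries. The sums were not tested, and with MRPS30 and MRPS18A moved to the large subunit the ratios were 2.20, 2.21 and 2.20.

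**Figure D2:**
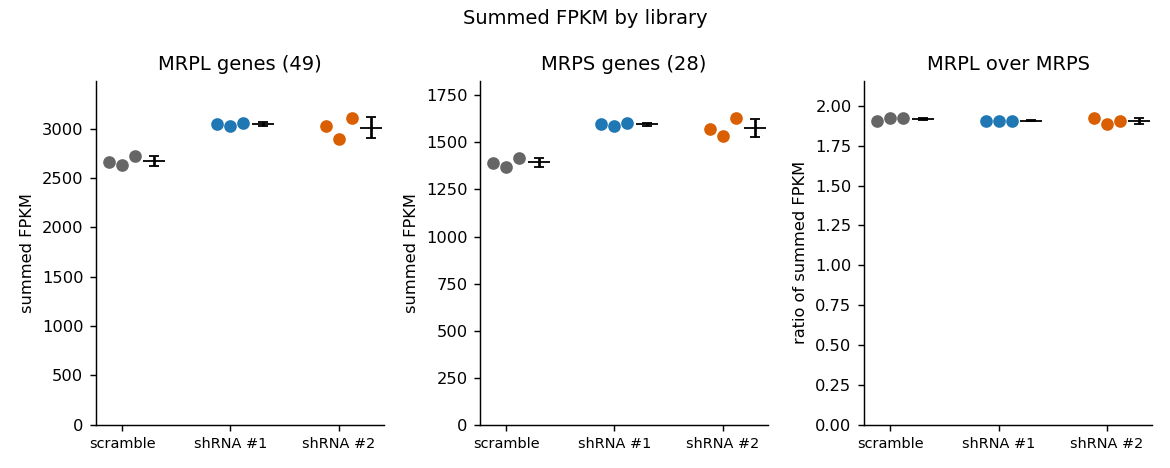
Summed FPKM of the 49 MRPL genes, of the 28 MRPS genes and their ratio, each point 1 library of control (scramble), shRNA1 or shRNA2, with the group mean and SD as bars beside the points. The sums are higher in all 6 knockdown libraries, and the ratio stays between 1.89 and 1.92 in all 9.

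Counted one by one, 36 of 49 MRPL genes and 22 of 28 MRPS genes rose, with median log2 changes of 0.18 and 0.17. Proteins with a bacterial counterpart, which form the core around the rRNA, had 32 of 45 higher with a median of 0.17. Proteins specific to mitochondria, which lie mostly on the outside of the particle, had 26 of 32 higher with a median of 0.19. These groups differed by less than their own spread, as the 77 changes ran from -0.13 to 0.30, and the difference between them was not tested. In the promoters, the ETS word stood in 25 of 51 members that rose and 4 of 18 that did not pass, and the YY1 word in 13 of 51 and 0 of 18. Among all 9647 tested genes with a promoter, the median change was 0.06 with and 0.02 without the ETS word, and 0.06 with and 0.03 without the YY1 word. Whether the words bear on the changes was not tested.

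The members have short transcripts, and in these libraries the change went with transcript length. The median member transcript was 1309 bases long, with 48 of 77 at up to 1500 bases, compared with 2659 bases for all tested genes. Across tested genes, length and knockdown change had a Spearman's rho of -0.44, a description over genes that share the same libraries. Among genes of up to 1000 bases, 13 of 19 members (68.4%) and 19.2% of 1453 other genes were called higher, with median changes of 0.17 and 0.11. Over 1000 and up to 1500 bases these were 24 of 29 members (82.8%) and 26.3% of 1154 other genes, with medians of 0.18 and 0.10. In both short classes the members stood above the other genes, and the other genes stood above 0.

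In the longer classes the other genes' medians fell with length and ended below 0, while those of the members stayed positive. Over 1500 and up to 2500 bases, 13 of 17 members and 19.3% of other genes were called higher (medians 0.16 and 0.06), and over 2500 and up to 4000 bases 6 of 9 and 10.4% (0.14 and 0.02). Over 4000 bases, 3 members had a median of 0.14 where 3408 other genes had -0.06. Level moved with the share called as well. Among genes of up to 1500 bases, 13 of 18 members and 24.8% of other genes between 10 and 50 FPKM were called higher, and 23 of 29 members and 38.0% of other genes between 50 and 200 FPKM. Median changes of members and other genes were 0.20 and 0.11 at the lower of these levels and 0.17 and 0.14 at the higher. Over 200 FPKM there were 0 members, and 57.0% of 230 other genes were called higher with a median of 0.16. Between 1 and 10 FPKM, with 1 member, 7.0% of other genes were called higher (median 0.06).

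**Figure D3:**
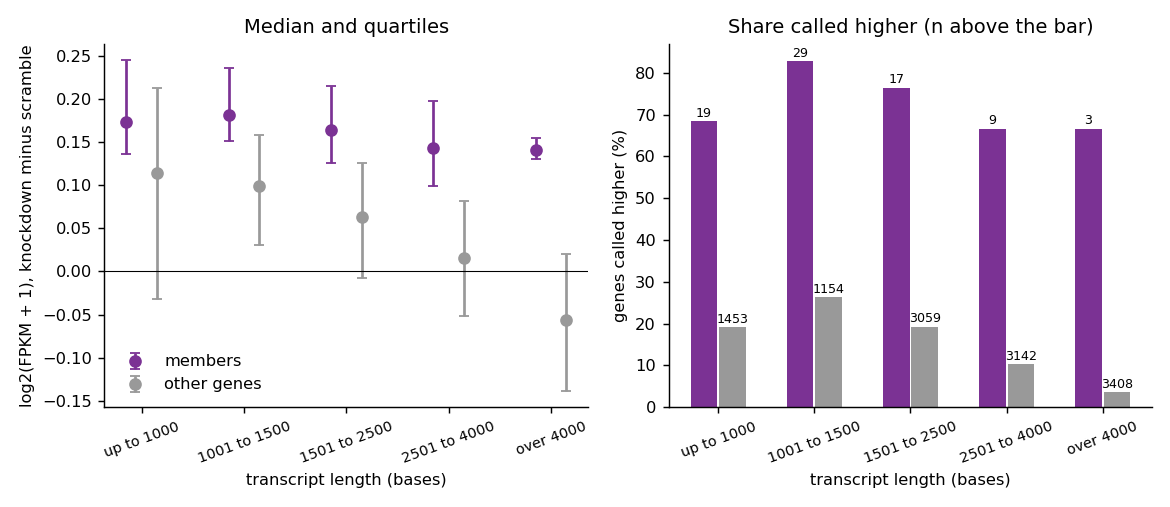
Knockdown against control by transcript length, for members (purple) and all other tested genes (grey). Left, median log2 change with quartiles as bars; right, percent of genes called higher by limma, with the number of genes above each bar. The grey medians fall from 0.11 to -0.06 with length, and the purple ones are at 0.17 in the shortest class, 0.18 in the next and 0.14 in the longest.

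When each library's trend on transcript length was removed, the family's rise was smaller and fewer members passed. Then 20 members were higher, compared with 6.56% of tested genes, 0 were lower, 71 of 77 changes were positive and the median was 0.09. The largest remaining changes were those of MRPL42 (0.34, limma adjusted p = 0.00515), MRPL35 (0.30, adjusted p = 0.00325), MRPS23 (0.22, adjusted p = 0.0182), MRPS30 (0.22, adjusted p = 0.00805) and MRPL50 (0.20, adjusted p = 0.0103). These 5 were picked after their values were seen, and the length of MRPL42, 14598 bases, is a mean over its entries weighted by FPKM, most of it from those matched to 1 very long annotated transcript. In MRPL35 the entry with most of the FPKM had no matched length and did not enter its mean length. That entry held 10.6, 11.5 and 11.4 FPKM in control and 13.3 to 15.6 FPKM in knockdown libraries. An entry of 3727 bases did enter, with 4.99, 4.66 and 4.97 FPKM in control and 4.84 to 5.24 FPKM in knockdown libraries. By origin, 8 of 45 members with a bacterial counterpart and 12 of 32 specific to mitochondria were still called. MRPS24, MRPL12 and MRPL53, among the most abundant, were at 0.05, 0.04 and 0.04 and did not pass. What makes the values of these libraries go with length was not tested.

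Library by library, the members moved with the other short genes. The median log2 distance of the 77 genes from the control mean was -0.01, -0.02 and 0.02 in the control libraries, 0.18, 0.19 and 0.19 with shRNA1 and 0.16, 0.13 and 0.21 with shRNA2. For 2606 other genes of up to 1500 bases it was 0.10, 0.10 and 0.11 with shRNA1 and 0.09, 0.05 and 0.14 with shRNA2. For 3408 genes over 4000 bases it was -0.06, -0.04 and -0.06 with shRNA1 and -0.07, 0.01 and -0.10 with shRNA2. Within shRNA2, replicate 2 was lowest for members and for short genes and highest for long ones, and replicate 3 the reverse. Without shRNA2 replicate 2, 63 members were called higher in knockdown.

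**Figure D4:**
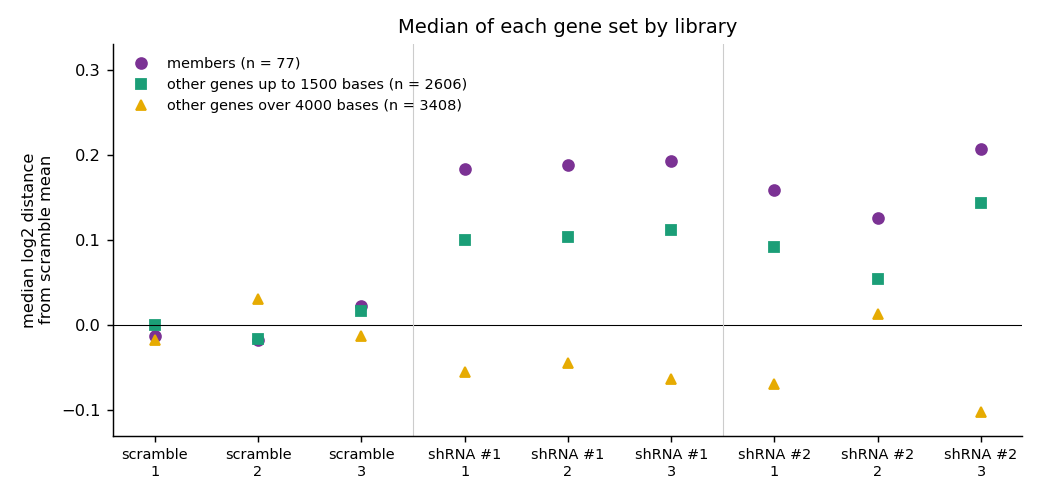
Median log2 distance from the control (scramble) mean in each of the 9 libraries, for the 77 members (circles), other genes of up to 1500 bases (squares) and other genes over 4000 bases (triangles). Members are highest in all 6 knockdown libraries, between 0.13 and 0.21, and rise and fall with the squares among the shRNA2 libraries.

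Against this common rise, 6 members differed between the hairpins when shRNA2 was tested directly against shRNA1. Of the 77, 5 were lower with shRNA2 (limma, adjusted p below 0.05), compared with 4.79% of tested genes, and 1 was higher, compared with 1.91%. Neither share stands far from the background. The other 71 did not pass this test, which does not show that they responded alike. For FZD6, the level with shRNA2 was below that with shRNA1 by a log2 difference of 0.25 ± 0.05 (limma adjusted p = 0.0274).

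MRPL19 is a counterpart of bacterial L19, which lies at a contact between the subunits. With the length trend left in, MRPL19 was the one member called lower than control, and with shRNA2 only. It measured 11.5, 12.3 and 12.1 FPKM in control, 12.3, 12.5 and 11.96 FPKM with shRNA1 and 9.31, 10.01 and 9.47 FPKM with shRNA2. The control and shRNA1 libraries overlapped, and all 3 shRNA2 libraries were below both. Against control the log2 change was 0.03 ± 0.04 with shRNA1 and -0.29 ± 0.04 with shRNA2 (limma adjusted p = 0.588 and 0.00217), and the difference between the hairpins was -0.32 ± 0.04 (adjusted p = 0.00335). The gene lies at 75646783 to 75662206 on chromosome 2 in build GRCh38.p14. GCFC2, on the opposite strand with 82 shared exonic bases, had a log2 difference of -0.19 between the hairpins as well (limma adjusted p = 0.00987), without being below control, with 9.12 FPKM in control, 11.05 FPKM with shRNA1 and 9.53 FPKM with shRNA2.

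MRPL49, specific to mitochondria, measured 43.4, 40.5 and 41.1 FPKM in control, 49.8, 48.5 and 49.9 FPKM with shRNA1 and 39.0, 36.1 and 41.0 FPKM with shRNA2. Every shRNA1 library was above all others, while the shRNA2 and control ranges overlapped. It rose with shRNA1 by 0.24 ± 0.05 (limma adjusted p = 0.0166), its change with shRNA2 was -0.10 ± 0.05 (adjusted p = 0.156), and the difference between the hairpins, -0.35 ± 0.05, was the largest in the family (adjusted p = 0.00772). It lies at 65122183 to 65127371 on chromosome 11, and its exons share 114 bases with the opposite-strand gene FAU, which encodes a cytosolic ribosomal protein fused to a ubiquitin-like one. FAU did not show this pattern, with 717 FPKM in control, 816 FPKM with shRNA1 and 848 FPKM with shRNA2.

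MRPL23, a counterpart of the bacterial exit-tunnel protein L23, measured 17.7, 17.9 and 19.7 FPKM in control, 22.5, 22.9 and 24.2 FPKM with shRNA1 and 20.3, 18.6 and 19.7 FPKM with shRNA2. MRPS35 measured 30.6, 31.3 and 31.7 FPKM in control, 35.6, 37.7 and 36.5 FPKM with shRNA1 and 29.6, 32.1 and 32.1 FPKM with shRNA2. MRPL37 measured 95.6, 92.4 and 94.9 FPKM in control, 103, 103 and 108 FPKM with shRNA1 and 94.6, 86.5 and 94.2 FPKM with shRNA2. In all 3 genes the shRNA1 libraries were above all others and the shRNA2 libraries overlapped with control. The differences, shRNA2 minus shRNA1, were -0.24 ± 0.05, -0.22 ± 0.04 and -0.19 ± 0.04 (limma adjusted p = 0.0383, 0.0184 and 0.0384). SSBP3, on the strand opposite MRPL37 with 32 shared exonic bases, was lower with shRNA2 than with shRNA1 too (7.10 and 6.14 FPKM, adjusted p = 0.00819), and lower than its control level of 7.94 FPKM with both.

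MRPL33, a counterpart of bacterial L33 and the shortest transcript of the family at 498 bases, went the other way. It measured 76.4, 76.0 and 79.8 FPKM in control, 88.0, 89.9 and 82.9 FPKM with shRNA1 and 98.8, 95.8 and 100 FPKM with shRNA2. The groups did not overlap, in the order control, shRNA1, shRNA2. The difference between the hairpins was 0.18 ± 0.04 (limma adjusted p = 0.0380). The calls for MRPL23, MRPL33 and MRPL37 sat close to the threshold: without shRNA1 replicate 3 their adjusted p were 0.126, 0.104 and 0.126, and the number lower with shRNA2 fell to 2 without shRNA1 replicate 2 or 3 and to 3 without control replicate 1 or 2, shRNA1 replicate 1, or shRNA2 replicate 1 or 3. The number higher with shRNA2 was 0 without any 1 library other than shRNA2 replicate 2, and 2 without that one.

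**Figure D5:**
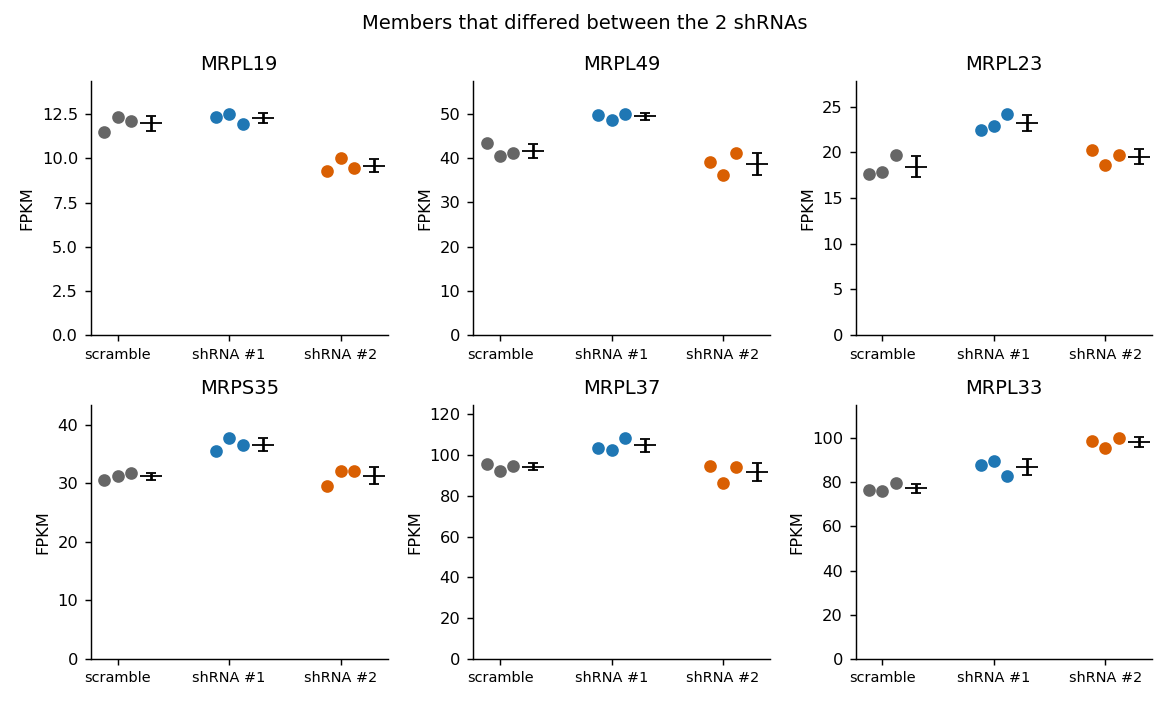
FPKM of the 6 members that differed between the hairpins, each point 1 library of control (scramble), shRNA1 or shRNA2, with the group mean and SD as bars beside the points. MRPL19 is lower with shRNA2 than in both other groups, MRPL49, MRPL23, MRPS35 and MRPL37 are higher with shRNA1 than in both other groups, and MRPL33 is highest with shRNA2.

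Of the 5 proteins of the mitochondrial ribosome that go by other symbols, 1 rose in knockdown over both hairpins. DAP3, a GTP-binding protein of the small subunit, measured 76.2, 76.0 and 76.96 FPKM in control and 86.0 to 89.2 FPKM in the knockdown libraries, with a change of 0.20 ± 0.02 (limma adjusted p = 0.00179). The changes of CHCHD1 (0.15), PTCD3 (0.12), GADD45GIP1 (0.12) and AURKAIP1 (0.09) were positive and did not pass. By single hairpin, PTCD3 was higher with shRNA1 (0.21, limma adjusted p = 0.0257) and not with shRNA2 (0.03, adjusted p = 0.742). CHCHD1 was higher with shRNA2 (0.20, adjusted p = 0.0309) and did not pass with shRNA1 (0.10, adjusted p = 0.221). For knockdown over both hairpins the shares of all tested genes beside these lists are again 13.5% higher and 7.09% lower, and the 1 of 5 lies near the first. These shares and the counts of the lists that follow are with the length trend left in. Of 28 assembly and rRNA factors 12 were higher (42.9%) and 0 lower, the largest being the rRNA methyltransferases MRM3 (0.25) and MRM1 (0.23) and METTL17 (0.20), which is needed to build the small subunit. Of 17 translation factors 6 were higher (35.3%) and 0 lower, led by SLIRP (0.25), which stabilises mitochondrial messages, the recycling factor MRRF (0.23) and the membrane insertase OXA1L (0.18).

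With the length trend left in, genes that keep and transcribe mitochondrial DNA passed the threshold in 3 of 14 cases. That was 21.4%, beside 13.5% of all tested genes, with MGME1 (0.25), SSBP1 (0.22) and POLG2 (0.15) higher and 0 lower. In the separate test of shRNA1 against control POLG, the catalytic subunit of the mitochondrial DNA polymerase, was lower (-0.17, limma adjusted p = 0.0121). With shRNA2 POLG did not pass (0.02, adjusted p = 0.650), and the hairpins differed by 0.19 (adjusted p = 0.0136). TWNK and TOP1MT were higher with shRNA2 (0.12 and 0.20, adjusted p = 0.0135 and 0.00301) and did not pass with shRNA1. These 3 genes were named after their values were seen. Of 7 regulators of nuclear genes for mitochondrial proteins 0 were higher in knockdown over both hairpins, and YY1 was lower by a small amount, with 42.7, 43.5 and 42.4 FPKM in control and 39.1 to 42.1 FPKM in knockdown libraries (change -0.09, limma adjusted p = 0.0470). Its knockdown and control ranges did not overlap, and it did not pass with the length trend, described above, removed. By single hairpin, YY1 was lower with shRNA1 (-0.12, limma adjusted p = 0.0247) and did not pass with shRNA2 (-0.07, adjusted p = 0.0990). MYC was higher with shRNA1 (0.18, adjusted p = 0.0498) and did not pass with shRNA2 (0.12, adjusted p = 0.144). Beside these lists, 65 of 82 cytosolic ribosomal protein genes were higher with a median change of 0.19, and 40 of 78 nuclear genes for respiratory chain subunits with a median of 0.15. With the length trend removed these were 21 (25.6%) and 9 (11.5%), beside 6.56% of all tested genes. The rise of the mitochondrial family was of the size seen in the cytosolic one, and its share past the threshold lay near it, at 75.3% and 79.3% (the difference was not tested).

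For single members, the tables leave some ambiguity in which gene the fragments belong to. Exons of 34 of the 77 genes overlap those of another gene, 24 of them on the opposite strand and 13 on the same strand, and the counting's use of strand is not given in the sources used here. Of the members, 43 had several RefSeq entries, up to 10 for MRPS11, and 4 had entries off the primary chromosomes. The copies of MRPL23, MRPL45 and MRPS18B carried FPKM of their own that entered the sums, and those of MRPS12 were listed at 0 FPKM in all 9 libraries. The members with a single entry rested on an estimated 432 to 6124 fragments per library, with a median of 1582, and the libraries on an estimated 33.05 M to 41.4 M fragments.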

How the data were processed

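RNA-seq of 9 DU145 libraries was analysed, 3 per group by the sample labels. Per the methods the authors prepared stranded mRNA libraries, aligned the reads by STAR and obtained FPKM by Cufflinks; tool versions are not given in the sources used here. The deposited FPKM tables give each RefSeq transcript and locus of hg38, although the methods name a mouse build. No counts were used, and depth was estimated from the confidence bounds of 1573 genes with a single entry. With 3 libraries per group, precision is limited.

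Accessions were paired with genes through RefSeq's table of GRCh38.p14 (72639 of 73240 matched), FPKM were summed per gene, and 42 genes with an entry of failed status were left out. Those averaging 1 FPKM or more were tested on log2(FPKM + 1) with limma 3.58.1 (R 4.3.3), adjusting p by Benjamini and Hochberg across all tested genes, at a threshold of 0.05, in a model of 2 groups for knockdown and of 3 groups for each shRNA. Fold changes on this scale understate those of low genes. An exact permutation test (two-sided, scipy 1.17.1) was added for FZD6. Each library's trend on transcript length was a lowess curve of span 0.3. Lengths came from GENCODE v29 and were averaged by FPKM over those of a gene's entries that had a matched length. Genes with no such entry took the longest annotated transcript of their symbol. Sums, length classes and promoter words got no test. Code was tested on simulated data.

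Named genes were the 8 largest rises and falls among called members, the 4 largest differences between the shRNAs in each direction, the 5 highest and 3 lowest control levels, MRPS30, MRPS18A, and up to 3 called genes per direction of each pathway list. MRPL37, MRPL41, MRPS12, MRPL28 and the genes overlapping members were named after their values were seen. The members and lists were chosen with earlier results of these data known. Alternatives were other pseudocounts, filters, scalings, trends, accession sets, call rules, the replicate block and leaving out each library. GFM1 was not analysed here. Some cell identity markers are not reported here.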

Additional observations from a re-analysis of the deposited data

Results flagged for a closer look

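MRPL24 had 1 knockdown library apart from the others: shRNA2 replicate 2 was at 156.6 FPKM, and the other 5 lay between 174 and 182 FPKM. It was the only one of 27 values looked at in the 6 knockdown libraries to stand apart by Dixon's ratio (0.669, above the 95% critical value for 6 samples), where chance gives about 1 in 20. Among the 6 knockdown libraries, the same library had the lowest median distance from the control mean over all members. Leaving this library out raised the number of members called higher from 58 to 63.

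In 6 of 77 members the effect differed between the hairpins by a direct test of shRNA2 against shRNA1 (limma, adjusted p below 0.05), 5 lower and 1 higher with shRNA2, beside 4.79% and 1.91% of all tested genes, so that the count is near the background. The differences on the log2(FPKM + 1) scale were -0.35 for MRPL49, -0.32 for MRPL19, -0.24 for MRPL23, -0.22 for MRPS35, -0.19 for MRPL37 and 0.18 for MRPL33. In MRPL19 all 3 shRNA2 libraries were below all 6 others, and in MRPL49 all 3 shRNA1 libraries were above all 6 others. Why the hairpins differ in these genes was not tested.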

How the results depend on the processing

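Among named members 1 value of 490 turned its direction: MRPS25 was at -0.16 on the log2 scale with NM_ accessions only. The count of members higher in knockdown, 58, was 20 with the length trend removed, 16 with the replicate block and the length trend removed, and 6 by the study's criteria, and 29 to 63 when each library was left out. With shRNA1, 53 became 35 with quantile normalization, 21 with the length trend removed, 13 with the block added, 8 by the study's criteria, and 26 to 61 without each library. With shRNA2, 50 became 20, 22 with the block added, 8 by the study's criteria, and 29 to 59 without each library; 3 members in place of 1 were lower with the length trend removed, with or without the block. Between the hairpins, the 1 member higher became 0 with the GC trend removed, the replicate block, the study's criteria or only the libraries compared, and 0 to 2 without each library, and the 5 lower became 3 with median centring, 2 by the study's criteria, 2 with only the libraries compared, and 2 to 4 without each library. The difference in the large to small ratio, -0.58%, became 0.41% with MRPS30 and MRPS18A in the large subunit. Members minus other genes by median log2 change became 0.13, 0.053 and 0.063 for the classes ending at 1000, 1500 and 4000 bases with the longest annotated transcript, and 0.23 over 4000 bases with a pseudocount of 0.1. The cause of these moves was not tested.

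Equal replicate numbers did not pair the samples: correlations of same-numbered libraries ran from -0.071 to 0.11. With the replicate number as a block, 52 members were higher in knockdown, 53 with shRNA1 and 53 with shRNA2. Sums without each library were tried after seeing the data, and the rise of the members' sum was 12.6% to 14.5% of control. No alternative moved the median of all genes by over 0.1.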
